A study of Mus musculus with 2 samples.

Results

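The mitochondrial ribosomal proteins were read as the 78 protein-coding mouse genes whose symbol is Mrpl or Mrps followed by a digit, out of 15622 annotated genes with a read in at least 1 library. Membership rests on the gene symbol alone, not on any measured value. The RNA was total RNA of gastrocnemius, a calf muscle, from 25-day-old male mice of strain B6CASTF1/J, a first-generation cross between C57BL/6J and CAST/EiJ. It was sequenced as long reads, where each read is assigned to a transcript model. The series has 1 group, for which the labels name no treatment, with 2 libraries from 2 µg RNA each and added spike-in RNA. The labels name separate animals for replicate 1 and replicate 2 but point to 1 donor record, so the spread between the libraries may be biological or technical. No condition was compared.

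The mitochondrial ribosome translates the few proteins encoded by mitochondrial DNA, all of them subunits of the respiratory chain or of ATP synthase. Its ribosomal RNAs come from mitochondrial DNA, whereas every protein of its large and small subunits is encoded in the nucleus, made in the cytosol and imported. Some of these proteins descend from bacterial ribosomal proteins and others are found only in mitochondrial ribosomes. Skeletal muscle depends on this machinery for oxidative phosphorylation.

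Replicate 1 held 1215785 reads in annotated genes and replicate 2 held 1549606. Levels are given in CPM: a gene's reads, scaled to 1000000 reads over annotated genes. The limit that a count of 0 sets (3 reads) corresponds to 2.47 CPM (replicate 1) or 1.94 CPM (replicate 2). The 6 fast-muscle markers (Ckm, Acta1, Myh4, Atp2a1, Tnnt3 and Mylpf) were all detected, at a summed 336407 and 204578 CPM. The libraries differed in other cell type markers: the 4 fibroblast genes, all detected, summed to 4118 and 705 CPM in replicates 1 and 2, the 3 Schwann cell genes to 59.2 and 307 CPM, and the 2 satellite cell genes to 0.823 and 2.58 CPM, with 1 of those 2 at 0 in replicate 1. The 3 endothelial genes summed to 26.3 and 14.2 CPM, the 3 adipocyte genes to 18.9 and 18.1 CPM, the 3 immune genes to 41.9 and 40.7 CPM with 1 at 0 in each, and the 2 erythroid genes to 322 and 507 CPM. The part of these differences in the results below was not tested. In whole tissue, fewer cells of a type and less RNA per cell cannot be told apart. A difference between the libraries by transcript length is given below, and its part in the marker sums was not tested.

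A few sequences carry the transcript results. The first pair is from Mrpl33, a small protein of the large subunit, whose gene spans chr5:31596935-31664384 on the plus strand of GRCm38 (mm10). The annotated coding transcript Mrpl33-201 joins the coding part of exon 1 to a 19-base exon at chr5:31614603-31614621 and then to exon 3, whose first base is 31616381. Nearly all reads were instead assigned to a chain that has 8 more bases after exon 1 and no 19-base exon. Capitals mark what differs between them.
Mrpl33-201: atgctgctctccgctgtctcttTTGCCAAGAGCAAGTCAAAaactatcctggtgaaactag
Mrpl33 chain in the reads: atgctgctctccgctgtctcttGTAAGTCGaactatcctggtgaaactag

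The next sequences show neighbouring splice acceptors used side by side in 3 members. Capitals mark the bases that are present only when the upstream acceptor is used, between the last 9 bases of the exon before and the first 9 bases after the downstream acceptor. They were read from the GENCODE M21 transcripts. Mrps10 is on chromosome 17 with the stretch from the upstream acceptor on at chr17:47372573-47372584, that of Mrps36 on chromosome 13 at chr13:100739187-100739201 (minus strand), and those of Mrpl55 on chromosome 11 at chr11:59204172-59204183 and chr11:59204535-59204564.
Mrps10: cctcgcgctCAGtgccagtat
Mrps36: aactcagtgCCTCAGaagctttgg
Mrpl55, untranslated part: cacgctaagCAGggcctacgt
Mrpl55, coding part: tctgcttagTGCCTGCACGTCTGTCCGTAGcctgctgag

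All 78 members were detected in both libraries, and each had at least 5 reads in each. Together they held 5695 reads (4684 CPM) in replicate 1 and 15424 reads (9954 CPM) in replicate 2, a mean of 7319 CPM ± 3726 (SD, n = 2). Replicate 2 was thus 2.12 times as high. In replicate 1 the members ran from 5.76 to 220 CPM (median 49.8), and in replicate 2 from 20.7 to 1147 CPM (median 81.6). The spread between the highest and lowest member was 38.1-fold in replicate 1 and 55.6-fold in replicate 2. Across the 78 genes, log2(CPM + 1) in the 2 libraries had Pearson's r = 0.832 and Spearman's rho = 0.762, given as a description, since genes are not independent replicates.

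**Figure D1:**
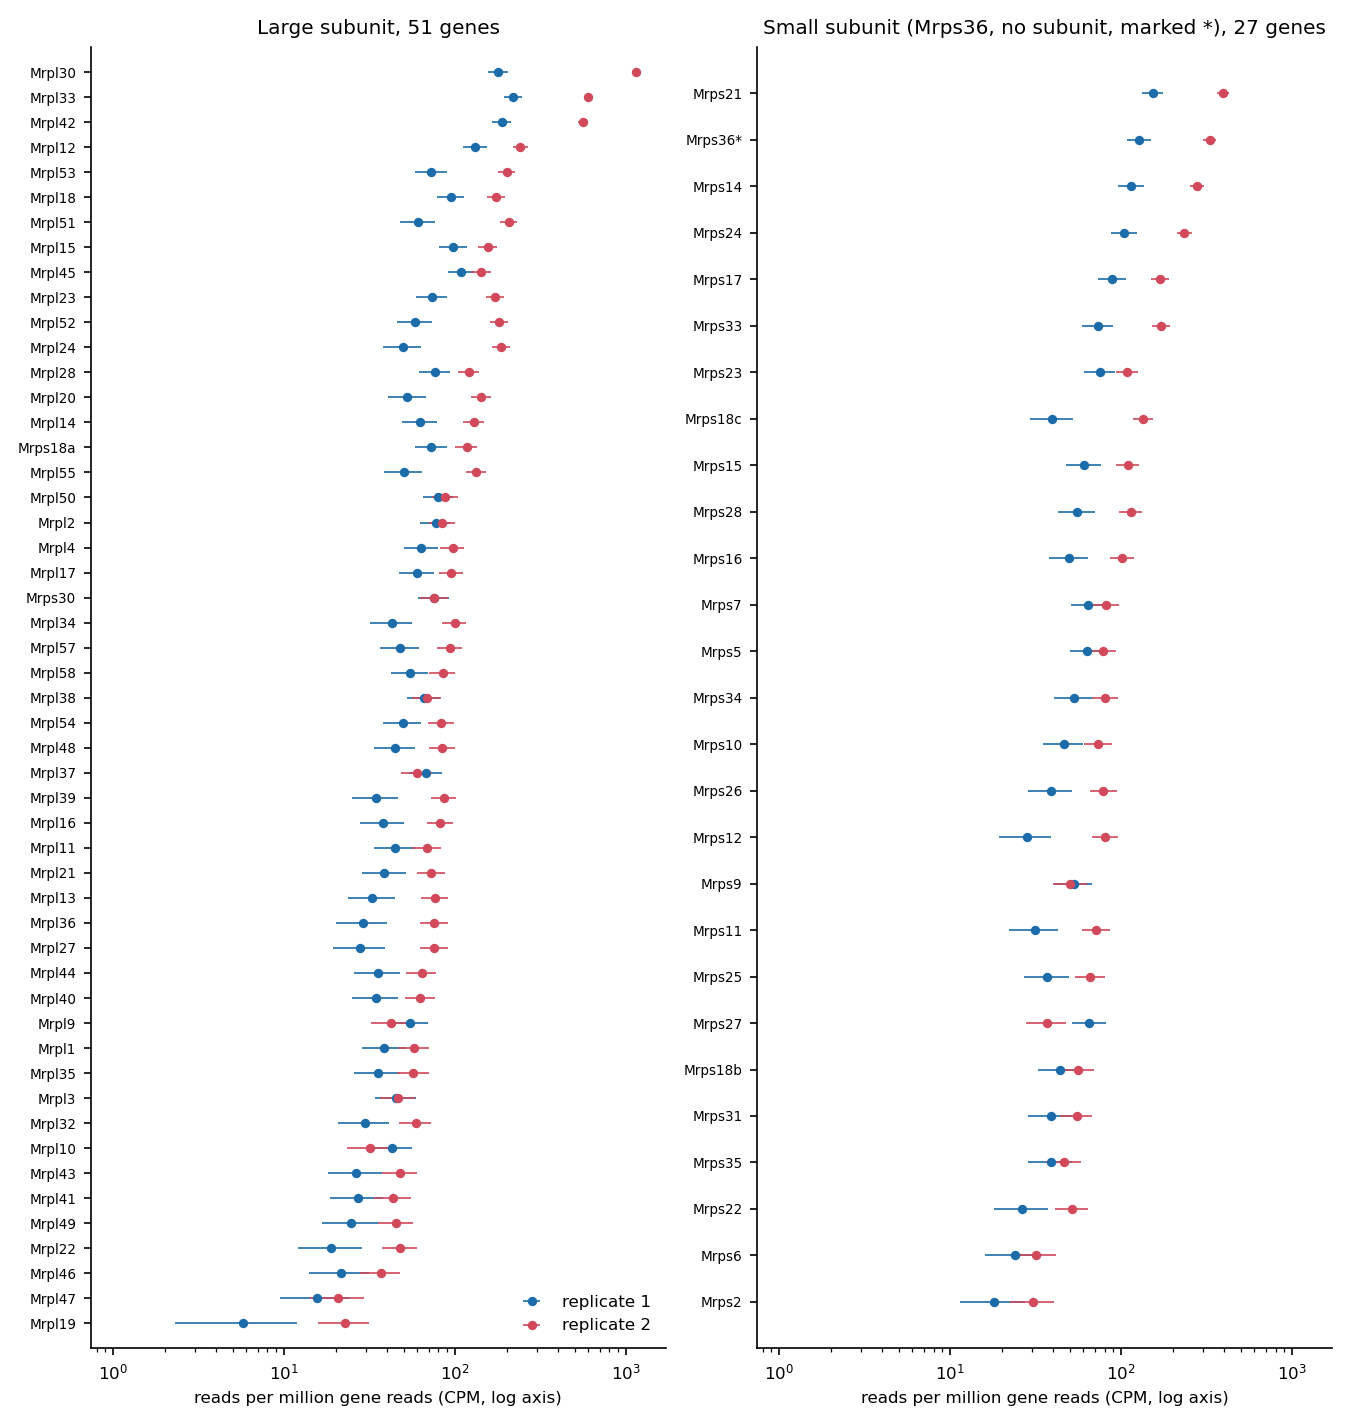
Level of each of the 78 members in replicate 1 (blue) and replicate 2 (red) in CPM on a log axis, split by subunit and ordered by mean; lines are exact 95% Poisson intervals, which cover counting error only. Most members lie further right in replicate 2, and Mrpl30, at 179 and 1147 CPM, has the widest gap among the most abundant members.

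Counted over all transcript classes, the 3 highest members belonged to the large subunit. This order depended on the class of reads. On annotated transcripts alone Mrpl42 was in place 1, Mrpl30 in place 7 and Mrpl33 in place 78, the last. Mrps21, Mrps36 and Mrps14 were then in places 2 to 4. Mrpl30, a large-subunit protein with a bacterial counterpart, had 218 reads (179 CPM) in replicate 1 and 1778 reads (1147 CPM) in replicate 2. Mrpl33, also of bacterial type, had 267 reads (220 CPM) and 934 reads (603 CPM). Mrpl42, found only in mitochondrial ribosomes, had 228 reads (188 CPM) and 873 reads (563 CPM). In replicate 1 the intervals of these 3 genes overlapped. In replicate 2 Mrpl30 stood above the others and the intervals of Mrpl33 and Mrpl42 overlapped.

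Below them came a mixed group. The small-subunit proteins Mrps21 (273 CPM ± 170), Mrps14 (196 CPM ± 116) and Mrps24 (169 CPM ± 91.8) were the highest of their subunit (mean ± SD, n = 2). Mrpl12, which forms the flexible stalk that contacts translation factors, reached 186 CPM ± 77.1. Mrpl53 (137 CPM ± 90.7) and Mrpl18 (134.4 CPM ± 56.3) closed the list of the 10 highest. Mrps36, in 5th place by mean with 127 CPM in replicate 1 and 330 CPM in replicate 2, is known as a subunit of the 2-oxoglutarate dehydrogenase complex rather than of the ribosome. Neighbours among these 10 differed by less than the larger SD of each pair, while 8 of the 10 highest members were the same in each library.

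At the lower end, Mrpl19 had 7 reads (5.76 CPM) and 35 reads (22.6 CPM), the lowest mean of all members. Mrpl47 (18.1 CPM ± 3.55), Mrps2 (24.2 CPM ± 8.65), Mrps6 (27.7 CPM ± 5.49) and Mrpl46 (29.1 CPM ± 10.9) followed. The 10 highest members supplied 30.4% of the summed CPM in replicate 1 and 42.2% in replicate 2. When the level was divided by the length of the main transcript, 7 of the 10 highest members were still among the 10 highest. Mrpl33 has no reads on its coding annotated transcript, and its length there is that of a retained-intron transcript.

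By place in the ribosome, the 51 large-subunit genes summed to 3076 and 6842 CPM and the 26 small-subunit genes to 1481 and 2781 CPM. Mrps30 and Mrps18a, which sit in the large subunit despite their names, were counted there. The ratio of large to small was 2.08 in replicate 1 and 2.46 in replicate 2. The median member was at 67.1 CPM in the large and 63.2 CPM in the small subunit (mean of both libraries). Without Mrpl30 and Mrpl33 the ratio of large to small was 1.81 and 1.83. The 46 ribosomal members with bacterial counterparts had a median of 71.9 CPM and the 31 found only in mitochondria 64.2 CPM.

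The paralogues Mrps18a, Mrps18b and Mrps18c encode related proteins, the first of which is placed in the large and the other two in the small subunit. Mrps18a was at 72.4 and 117 CPM, Mrps18b at 43.6 and 56.1 CPM, and Mrps18c at 39.5 and 134.2 CPM. Mrps18a was the highest of them in replicate 1 and Mrps18c in replicate 2, so their order differed between the libraries. In replicate 2, however, the intervals of Mrps18a (100 to 135 CPM) and Mrps18c (117 to 154 CPM) overlapped. In replicate 1 those of Mrps18b and Mrps18c overlapped.

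Reads per gene were compared between the libraries by Fisher's exact test (two-sided; reads of 1 gene against those of the other genes), with Benjamini-Hochberg adjustment over the 8692 genes that had 10 or more reads. This compares these libraries, and not conditions. In replicate 2, 58 of the 78 members were higher and 1 was lower at an adjusted p under 0.05, and 19 were not called. Among all tested genes 17% were called higher and 26.3% lower, 43.3% in either direction. The median log2 ratio, replicate 2 over replicate 1 of CPM + 1, was 0.84 for the members and -0.27 for all tested genes, and 72 of the 78 members were above 0. When the edgeR exact test allowed a coefficient of variation of 0.2 between libraries, 19 members were called higher and none lower, and at 0.4 none was called either way. The calls thus rest on counting error alone, and libraries of 1 group cannot show how much animals differ. The share of all tested genes called at these coefficients is not given here, so these member counts are not read against it.

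The largest ratio was that of Mrpl30, at log2 2.67 ± 0.10 (SE from counting; adjusted p = 7.2e-226 by Fisher's exact test). Mrpl24 followed at 1.89, with 60 and 288 reads, then Mrpl19 at 1.80, Mrpl51 at 1.74 with 74 and 319 reads, and Mrps18c at 1.74 with 48 and 208 reads. Mrpl52 reached 1.61 with 71 and 280 reads, Mrpl42 1.58, and Mrps12, a protein of the decoding centre, 1.495 with 34 and 125 reads. For Mrpl30 and Mrpl24 the value depended on reads on single-exon models. Counted on models with 2 or more exons, Mrpl30 fell to 96 and 323 reads and a log2 ratio of 1.53. Mrpl24 fell to 28 and 51 reads and 0.64 (adjusted p = 0.0997 by Fisher's exact test), which was no longer a call. Mrpl51 on the same models had 55 and 153 reads and a log2 ratio of 1.25.

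Mrps27, a pentatricopeptide repeat protein of the small subunit, was the member called lower, with 79 reads (65.0 CPM) in replicate 1 and 57 reads (36.8 CPM) in replicate 2, a log2 ratio of -0.80 (adjusted p = 0.0036 by Fisher's exact test). Under TMM and DESeq2 scaling its ratio was -0.52 and -0.46 and it was not called. Mrps30 had nearly equal levels, 75.7 and 75.5 CPM. Mrpl10, at 42.8 and 31.6 CPM, and Mrpl9, at 54.3 and 41.9 CPM, were lower in replicate 2 without passing the test.

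The libraries also differed by transcript length. Over tested genes with a main annotated transcript, the median log2 ratio was 0.70 for main transcripts of 500 to 1500 bases, -0.28 for 1500 to 3000 bases and -0.99 for longer ones. The 46 members of 500 to 1500 bases had a median of 0.93, with 39 called higher (45.5% of all genes of that length were). The 14 members of 1500 to 3000 bases had 0.56 with 7 called higher (9.65% of all), and the 16 longer ones 0.66 with 10 called higher (4.53% of all). Members are short, with a median main transcript of 1284 bases against 2535 for all tested genes, and the part of length in their ratios was not tested. Within each length class, including the 2 members under 500 bases (1.49 against 1.36), the members' median was above that of all genes. Mrpl33 was placed by its retained-intron transcript. All lengths are those of annotated transcripts, not of the molecules read. In Mrpl51, classed at 3427 bases, the main single-exon models ended 2711 bases before the annotated end. In Mrps26, classed at 4278 bases, such a model in replicate 2 ended 3301 bases before it. Whether such members are classed as too long was not tested.

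**Figure D2:**
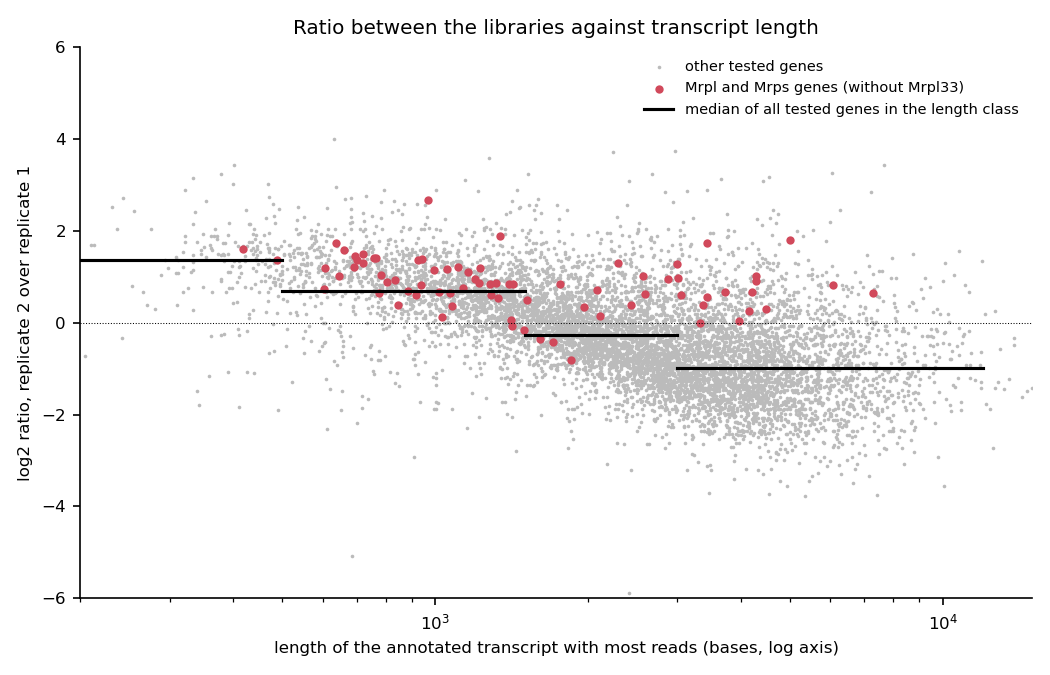
Log2 ratio of replicate 2 over replicate 1 against the length of the annotated transcript with most reads (log axis) for all tested genes (grey) and the members without Mrpl33 (red); black lines are the medians of all tested genes in each length class. The medians fall from 1.36 under 500 bases to -0.99 above 3000, and most red points lie above the line of their class.

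Related gene groups were set beside the members. Of 5 mitoribosomal proteins with other names, 3 were called higher: Gadd45gip1 at 102.8 and 399 CPM, Chchd1 at 73.2 and 190 CPM and Aurkaip1 at 68.3 and 132 CPM. Dap3, the GTP-binding protein of the small subunit, was at 34.5 and 41.9 CPM and Ptcd3 at 35.4 and 28.4 CPM, without a call. Of the 80 tested cytosolic ribosomal protein genes, 73 were higher and 0 lower, with a median log2 ratio of 1.09. All 10 tested protein genes of the mitochondrial chromosome were higher, with a median of 2.09.

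Genes that act on the mitochondrial ribosome, charge its tRNAs or transcribe its genome had medians near or below 0. All tested genes had a median of -0.27, with 17% called higher and 26.3% lower. The median was -0.11 for the translation factors and -0.18 for the transcription list. The difference of these lists from the members, or from all genes, was not tested. Of 17 translation factors and RNA-binding cofactors, 1 was higher and 3 were lower: Slirp, an RNA-binding protein, was at 89.7 and 305 CPM, whereas its partner Lrpprc fell from 136 to 24.5 CPM and the elongation factors Gfm1 and Gfm2 from 86.4 to 43.9 and from 51.8 to 17.4 CPM. Pdf, the peptide deformylase, was at 81.4 and 87.8 CPM. Of 22 tested assembly factors, 3 were higher and 4 lower, with a median log2 ratio of -0.04; Malsu1 was at 43.6 and 78.1 CPM (higher), Mtg1 at 38.7 and 34.2 CPM and Rbfa at 36.2 and 35.5 CPM (neither called). Of 15 tested mitochondrial aminoacyl-tRNA synthetases, 0 were higher and 3 lower (Iars2, Hars2 and Vars2), with a median of -0.54; the 3 most abundant, Fars2, Tars2 and Aars2, were at 51.8 and 37.4, 40.3 and 28.4, and 39.5 and 24.5 CPM without a call. Of 5 tested transcription factors of the mitochondrial chromosome, the elongation factor Tefm (18.9 and 36.1 CPM) and Mterf2 were higher and the polymerase Polrmt (31.3 and 6.45 CPM) was lower, while Tfam was at 21.4 and 18.7 CPM. Their main transcripts were longer, with medians of 2588 bases for the translation factors, 1918 for the assembly factors, 3336 for the synthetases and 2449 for the transcription list.

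Most member reads were full matches to annotated transcripts, 84.7% (exact 95% Clopper-Pearson interval 83.8 to 85.7) in replicate 1 and 72.7% (72.0 to 73.4) in replicate 2. Of the annotated reads, 98.7% and 98.3% were on protein-coding transcripts. Other protein-coding genes had 65.4% and 70.4% of their reads on annotated transcripts. Of the 78 members, 71 had 50% or more annotated reads in both libraries and 62 had 80% or more. Mrpl33, Mrpl24 and Mrpl30 were under 50% in each library. Without Mrpl30 and Mrpl33 the shares were 90.7% and 85.6%.

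**Figure D3:**
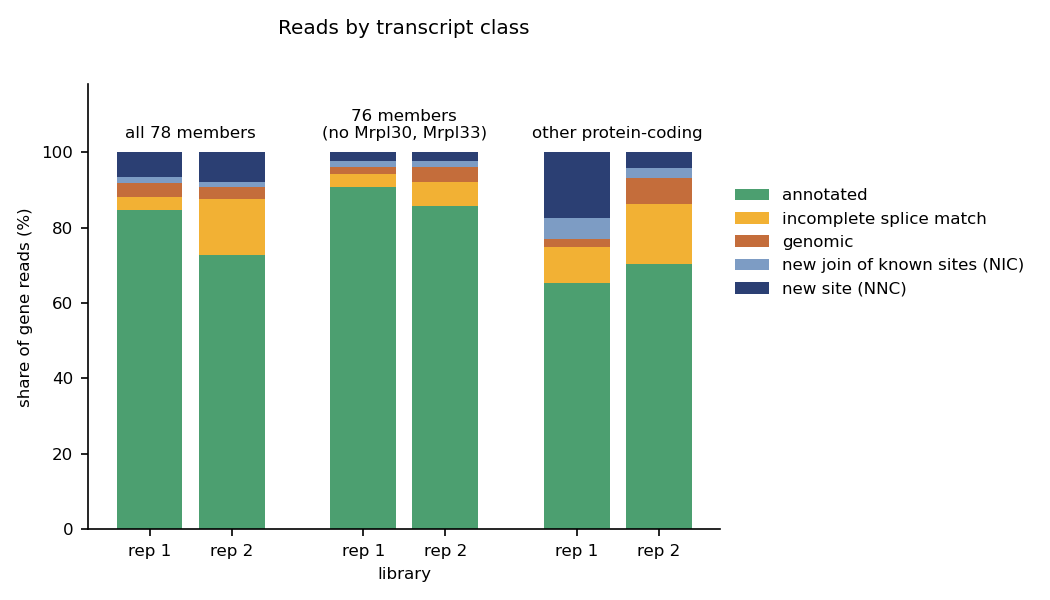
Share of gene reads (%) by transcript class in replicate 1 and replicate 2, for all 78 members, for the 76 without Mrpl30 and Mrpl33, and for other protein-coding genes. The members' annotated share (green) was 84.7% and 72.7%, and without those genes 90.7% and 85.6%.

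Mrpl33 had the lowest share of annotated reads of all members. The chain shown above, with 3 exons, took 256 of its 267 reads in replicate 1 (95.9%, interval 92.7 to 97.9) and 900 of 934 in replicate 2 (96.4%, interval 95.0 to 97.5). Reads with both annotated junctions of the 19-base exon numbered 0 of 267 and 0 of 934, which allows shares of up to 1.37% and 0.394% (Clopper-Pearson), and reads joining the annotated end of exon 1 straight to exon 3 numbered 3 and 3. Another 2 and 10 reads were on models that hold the 19-base exon, without both of those junctions. Only 3 and 8 reads were full matches to an annotated transcript, all of retained-intron type. The 19-base exon is in 3 of the 11 annotated transcripts.

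In Mrpl33 the 19-base exon is coding: the annotated reading frame has 195 coding bases before the stop codon, or 65 codons. The chain loses 19 bases and gains 8, a net loss of 11, which is not a multiple of 3. Read from the annotated start codon, the genome sequence of the chain reaches a stop after 42 codons. The bases GT follow exon 1 both at its annotated end and at the end of the 8 extra bases, and AG and GT flank the 19-base exon. The 8 extra bases and the 19-base exon share the run AAGTC. The deposited files give the position of a model and not the bases of its reads, so whether the reads carried the 19-base exon was not tested.

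**Figure D4:**
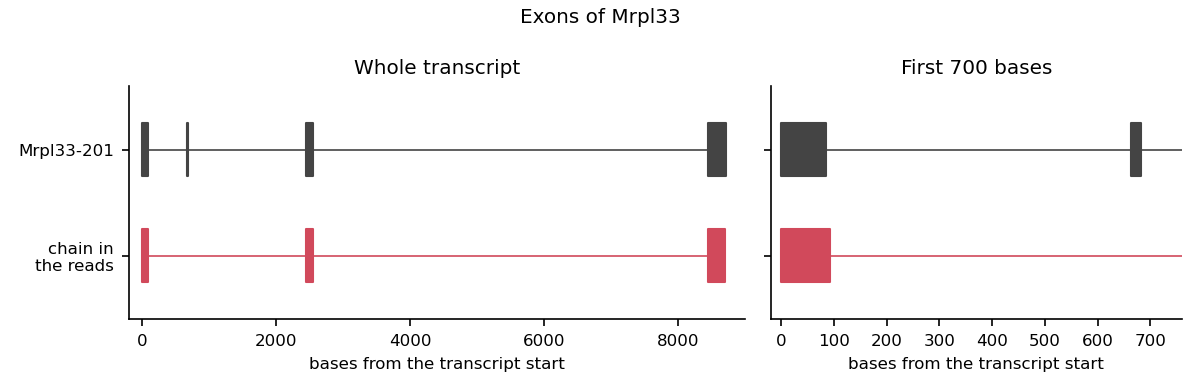
Exons of the annotated coding transcript Mrpl33-201 (grey) and of the chain to which most reads were assigned (red), by distance in bases from the transcript start; the right panel enlarges the first 700 bases. The chain has the first exon longer by 8 bases, no 19-base exon, the same middle exon, and a last exon that starts at the same base and ends 7 bases earlier.

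Mrpl30 reads were mostly on single-exon models. A model inside 1 exon does not show whether its RNA was spliced. In replicate 2, 1455 of 1778 reads (81.8%) were on 1 model at chr1:37898061-37898338, inside the last exon, classed as an incomplete splice match, a model that holds only part of an annotated transcript's exons. In replicate 1, 122 of 218 reads (56.0%) were on a model at chr1:37898165-37898338, with the same end but classed as genomic, a model with no matching splice sites. Both end 197 bases before the annotated end of Mrpl30-201. The reads on models with more exons, 96 and 323, were mostly on Mrpl30-201, with 80 and 251 reads.

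Mrpl24 had 32 of 60 and 237 of 288 reads on a genomic model that is recorded as 1 base long, so where those reads lay cannot be read from the files. Single-exon reads of this kind were 5.34% of member reads in replicate 1 and 16% in replicate 2, and 302 of 304 and 2450 of 2464 of them had a recorded position in the last exon of the gene's main transcript. These include 34 and 281 reads on 1-base models, whose extent is unknown. Mrpl30 alone supplied 40.1% and 59.1% of them. Mrpl51 had 19 and 166 such reads, Mrpl16 10 and 64, and Mrpl53 0 and 34. Other protein-coding genes had 3.12% and 10.8% such reads, and the members without Mrpl30 and Mrpl33 had 3.49% and 7.91%.

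No member differed past the threshold between the libraries in annotated isoform use. The share of the main transcript was tested in 48 members with 2 or more annotated transcripts and 20 or more annotated reads per library, and 0 passed an adjusted p of 0.05 by Fisher's exact test, against 2.55% of 1609 genes. One, Mrps17, had an unadjusted p under 0.05 (59.2% and 72.3% on Mrps17-201, p = 0.041 by Fisher's exact test). The edgeR and DESeq2 tools were not run on these shares. In 40 of the 48 members the main transcript held 80% or more in each library.

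The second most used annotated transcript held 10% or more in both libraries in 9 members, and in Mrpl55 the one after it, Mrpl55-205, held 14.8% and 14.3%. In Mrps10, Mrps10-203 and Mrps10-204 had 30 and 20 reads in replicate 1 and 52 and 54 in replicate 2. Mrps12-204 had 25.8% and 39.1% of its gene's annotated reads, Mrps23-203 23.9% and 21.3%, Mrpl24-201 19.2% and 26.5%, and Mrps17-205 21.1% and 12.8%. Mrps36-202 held 12.9% and 11.1% and Mrpl30-205 11.6% and 11.7%. In Mrpl57 and Mrpl33 the second transcript was of retained-intron type.

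Splice sites gave a finer view. Among 75 members with a splice site covered by 20 or more reads in each library, 8 had a less used junction at 10% or more in both. The nearest to equal use was the tandem acceptor of Mrps10 shown above, where the upstream site, which adds CAG, had 32 and 53 reads and the downstream site 23 and 55. The downstream share was 41.8% (28.7 to 55.9) in replicate 1 and 50.5% (40.7 to 60.2) in replicate 2. In Mrps36 the acceptor 6 bases downstream had 20 of 151 reads (13.2%) and 57 of 493 reads (11.6%). Both shifts are in coding sequence and keep the reading frame.

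Mrpl55 had a pair of such sites. In its untranslated part the acceptor 3 bases downstream had 23.3% and 28.1% of reads, and in its coding part the acceptor 21 bases upstream had 32.1% and 18.2% (18 of 56 and 32 of 176 reads). The latter was the widest difference between the libraries among the short shifts, with p = 0.039 by Fisher's exact test before adjustment over 12 junction comparisons. Whole exons were left out in 3 members. In Mrpl13 a coding exon of 94 bases at chr15:55548142-55548235 was skipped in 9 of 38 and 13 of 97 reads, which shifts the frame. In Mrpl30 an exon of 81 bases was skipped in 12.1% and 12.7%, and in Mrps17 one of 80 bases in 21.5% and 14.6%. The first base of each lies outside annotated coding sequence, and the rest of the exon was not checked.

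**Figure D5:**
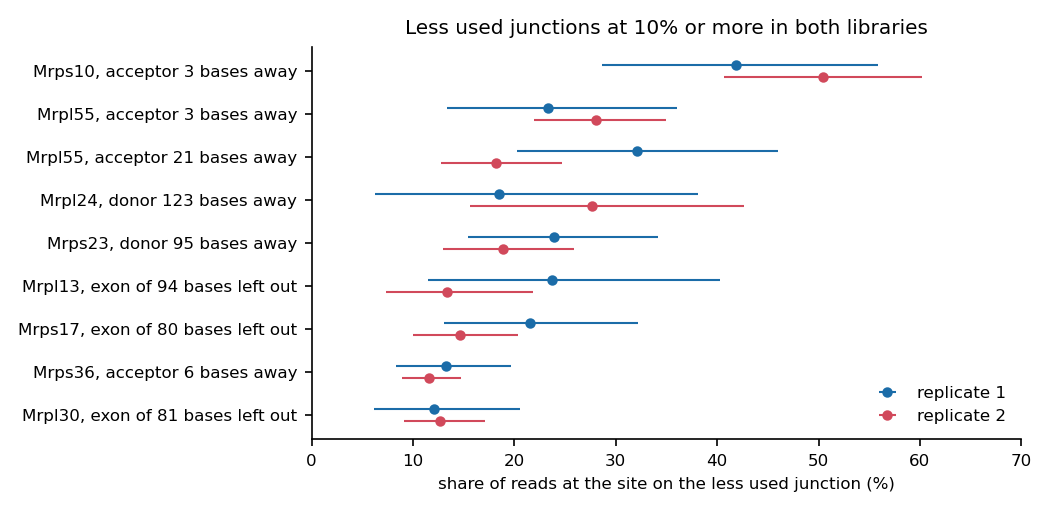
Share of reads (%) on the less used junction at each splice site of members where that share was 10% or more in both libraries; points are replicate 1 (blue) and replicate 2 (red), and lines exact 95% Clopper-Pearson intervals. Mrps10 lies near equal use, at 41.8% and 50.5%, and the intervals of the 2 libraries overlap at every site shown.

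Most unannotated intron chains had few reads. In all, 337 such chains were seen in members, 138 in replicate 1 and 260 in replicate 2, and 61 were in both, spread over 35 members. Of the 337, 231 had a single read. With 3 or more reads in each library there were 14. After Mrpl33, the most frequent was the Mrps17 chain without the 80-base exon, with 17 and 29 reads, then a 2-exon chain of Mrpl55 with 4 and 26 reads. Mrpl42 had 2 such chains, with 4 and 12 and with 4 and 8 reads, and Mrps24 1 with 6 and 8 reads.

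Members are often paired with a neighbour on the opposite strand. In 33 of the 78 (42.3%) the gene start lay within 1000 bases of the start of a protein-coding gene on the other strand, against 17.9% of 8115 other tested protein-coding genes in the M21 annotation. Mrpl46 and Mrps11, one of each subunit, form such a pair with starts 412 bases apart. The other neighbours differ in known role: Mrps12 lies beside Sars2, a mitochondrial synthetase, and Mrpl51 beside Ncapd2, a condensin subunit; the roles were not tallied. Mrpl46 was at 21.4 and 36.8 CPM and Mrps11 at 31.3 and 71.6 CPM, both called higher in replicate 2. The Mrpl46 call (adjusted p = 0.047 by Fisher's exact test) was lost on annotated transcripts alone (0.101) and with 1-read models left out (0.068).

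Promoter sequence was searched in the RefSeq windows of GRCm38.p6, from 250 bases before to 50 after a start, on both strands. Windows were found for 69 of the 78 members (75 windows) and for 6618 other tested genes (8565 windows). The ETS motif CCGGAAG was in 34.7% of member windows and 18.8% of the others, the YY1 motif AAGATGGC in 16% and 5.0%, and the NRF1 motif CGCATGCG in 9.33% and 4.19%. The SP1 motif GGGCGG was in 52% and 63.9%, and the TATA motif TATAAA in 6.67% and 7.20%. Over all 32851 windows of the table these shares were 8.86%, 2.75%, 1.87%, 35.7% and 13.6%. A match describes letters only. The ETS motif ends and the YY1 motif begins with AAG, so a single stretch can match both.

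As examples, the last 120 bases before the start are given for those of the members with the largest ratios that have no head-to-head neighbour and no annotated gene, the member itself included, over the 250 bases before it. These are Mrpl52 (chr14:54426789-54426908, plus strand) and Mrpl42 (chr10:95501950-95502069, minus strand). Mrpl24 has no such neighbour either, but its own annotated gene reaches into the window, which held 0 of the motifs. Capitals mark the ETS match of Mrpl52, which begins 47 bases before the start, and the SP1 match of Mrpl42, 90 bases before it, each on the other strand.
Mrpl52: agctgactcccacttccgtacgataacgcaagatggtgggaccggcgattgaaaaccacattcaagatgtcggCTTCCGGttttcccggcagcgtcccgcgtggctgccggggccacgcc
Mrpl42: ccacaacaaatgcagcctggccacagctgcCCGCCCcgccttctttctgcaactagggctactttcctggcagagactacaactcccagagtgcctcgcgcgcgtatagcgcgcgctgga

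Processed copies limit how far reads can be placed. For 20 members a pseudogene matched a member transcript at 95% identity or more over at least 200 bases, 27 copies in all. Of these, 7 had a read and 3 had 10 or more over both libraries. Gm5776, a copy of Mrps33 at 99.7% identity, had 8 and 38 reads beside 89 and 265 on Mrps33, and Gm14017, a copy of Mrpl51, had 2 and 12. The reads of Mrpl23 and its identical copy are given in the closing observations. The levels of these members are uncertain to that extent.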

How the data were processed

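Per the file headers, the authors deposited 1 table per library with whole-number read counts per transcript model, not normalised, and an annotation with the exons of each model; per the labels the assembly was mm10. Models carry TALON classes, per the file headers, and GENCODE M21 supplied positions. For the aligner, read filters and use of strand: not given in the sources used here. Both libraries were processed separately, so unannotated models were matched by exact intron chain.

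For each annotated gene, reads were added up over every class and scaled to the library's gene reads without spike-ins. Levels count reads, those on partial models included, and were not divided by length unless said. Whether reads include PCR copies was not tested. Genes with 10 or more reads were tested by Fisher's exact test (scipy 1.17.1, adjusted p under 0.05; pseudocount 1 CPM). With 1 library per side, edgeR 4.0.16 and DESeq2 1.42.0 served only as alternatives, for scaling and for an exact test at a fixed coefficient of variation. Copies were found with blastn 2.17.0. Intervals (95%) and the limit of 3 counts cover counting error only. Data were simulated for 8698 genes with counting error alone. The test then called 67 of 100 genes changed 2-fold, 94 of 100 changed 4-fold and 7 of 8498 unchanged genes. With a coefficient of variation of 0.2 it called 880 of 8490 unchanged genes. The changed genes were drawn above a minimum expected count higher than the minimum for testing, so their shares do not cover genes with few reads.

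Members named are the 10 highest and 5 lowest, the 8 largest ratios each way past the threshold, the Mrps18 paralogues, Mrps30, Mrps36, those with a second transcript at 10%, those with 50% of reads outside annotated transcripts, those with an unannotated chain of 3 reads per library, and the 3 most abundant genes of each list. Other genes were named after their values were seen. The members and lists were chosen with earlier results of these data known. Subunit places were assigned by hand from knowledge of the ribosome structures.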

Additional observations from a re-analysis of the deposited data

Results flagged for a closer look

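Reads appeared on the pseudogene Mrpl23-ps1, which is not among the members, at 66 in replicate 1 and 143 in replicate 2, above the limit of 3 that a count of 0 allows. Its transcript is identical to Mrpl23-201 over 540 bases, and Mrpl23 itself had 89 and 266 reads. Summed over gene and copy, the log2 ratio was 1.04 (155 and 409 reads) in place of 1.22 for Mrpl23 alone, and remained past the threshold of Fisher's exact test.

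Models classed as antisense to a member held 36 reads over 16 members in replicate 1 and 180 reads over 28 members in replicate 2, also above that limit. Per 100 member reads this was 0.632 and 1.17. Mrpl51 had 3 and 56 antisense reads beside 74 and 319 of its own, and Mrps6, the small-subunit protein at the low end of the order, had 9 and 40 beside 29 and 49. How strand entered the assignment is not stated by the labels or file headers, and antisense reads and reads of the gene itself cannot be told apart without it.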

How the results depend on the processing

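All 78 members stayed detected under each of 4 alternatives. Leaving out a library moved the summed level between 4684 and 9954 CPM, the subunit ratio between 2.08 and 2.46 and the annotated share between 72.7% and 84.7%. The mean subunit ratio, 2.27, was 1.84 with annotated transcripts alone, 1.84 with subunits taken from gene names and 1.82 without Mrpl30 and Mrpl33 (added after seeing the data), and the mean annotated share of 78.7% rose to 88.2% without them. Members called higher, 58, ranged from 43 to 67 over the alternatives on Fisher's test (65 with TMM and 67 with DESeq2 scaling, against 1952 and 2009 of all genes in place of 1480), but were 19 and 0 in edgeR's exact test at coefficients of variation of 0.2 and 0.4. Members called lower, 1, were 2 on annotated transcripts alone and 0 under TMM and DESeq2 scaling and under both edgeR tests; all genes called lower fell from 2286 to 1602 and 1377 under those scalings. For the other alternatives the counts over all genes are not given here, so the member counts are not read against them. Before the pseudocount, TMM scaling shifted log2 ratios up by 0.29 and DESeq2 scaling by 0.35. The median log2 ratio of 0.84 was 0.66 on annotated transcripts alone, 1.13 with TMM, 1.18 with DESeq2 and 0.73 at a pseudocount of 10. Chains found in both libraries fell from 61 to 25 when 2 reads were required in each. Among 34 named members, no ratio changed sign as a call. Of the values, 260 kept their side of the threshold, 9 lost it and 4 gained it. The 260 include 34 values at a pseudocount of 0.1 and 34 at 10. A pseudocount changes neither the p-value nor the sign of a ratio, so these could not have moved. No paired analysis was possible because there is 1 group. Depth limits the low members: Mrpl47, with 19 and 32 reads, and Mrpl19, with 7 and 35, were below the minimum for a test of isoform share.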
